A study of Homo sapiens with 4 samples.

Results

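The 9 genes described here encode enzymes of heme synthesis and the mitochondrial transporter ABCB10. They were chosen by name: ALAS1, ALAS2, ALAD, UROS, UROD, CPOX, PPOX, FECH and ABCB10 were matched by Ensembl identifier in the deposited count table, and all 9 of 9 were found among its 20348 genes. The rule uses names and no measured value, but the 9 genes and the lists beside them were chosen with earlier results of these data known. Messenger RNA was sequenced from K562, a human erythroleukemic line from chronic myeloid leukemia in blast crisis, and from THP-1, a human acute monocytic leukemia line. Each line had 1 library after 72 h with the solvent DMSO and 1 after 72 h with 100 nM periplocin, a cardiac glycoside that inhibits the sodium pump. The labels call the controls blank, while their library names give DMSO. The study's methods state a single biological replicate per condition, so each condition is 1 culture of 1 line, and no p-value could be given. Differences are reported as folds between libraries with a 95% exact Clopper-Pearson interval, which covers counting error only and not the variation between cultures.

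Heme is an iron-containing ring that is built partly in the mitochondrion and partly in the cytosol. The pathway starts with aminolevulinate synthase, which condenses glycine with succinyl-CoA, and ends when ferrochelatase inserts iron into protoporphyrin. Erythroid cells make most of the body's heme, for hemoglobin, and use their own synthase gene ALAS2 on the X chromosome, whereas other cells use ALAS1. In erythroid cells the transcription factors GATA1 and KLF1 act on many genes of the pathway.

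Stretches of promoter sequence are shown for 4 of the genes: ALAS2, CPOX and FECH, whose folds in K562 were the largest of the 9, and UROD, whose levels there were within 1.07-fold of each other. Sequences were taken from RefSeq on GRCh38.p14, where 8 of the 9 genes had a promoter entry and UROS was not matched. Only bases upstream of the RefSeq start that lie outside every annotated exon are printed. The stretches are chrX:55031065-55031227 on the minus strand for ALAS2, chr3:98593724-98593861 on the minus strand for CPOX, chr18:57586773-57586952 on the minus strand for FECH and chr1:45012004-45012146 on the plus strand for UROD. Each is read 5′ to 3′ in the direction of the gene, and capitals mark matches to a GATA motif, searched on both strands as AGATAA, also with T as its first letter and with G as its last.
ALAS2: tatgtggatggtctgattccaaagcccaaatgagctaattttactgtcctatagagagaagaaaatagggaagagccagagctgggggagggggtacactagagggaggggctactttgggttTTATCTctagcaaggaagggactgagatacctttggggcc
CPOX: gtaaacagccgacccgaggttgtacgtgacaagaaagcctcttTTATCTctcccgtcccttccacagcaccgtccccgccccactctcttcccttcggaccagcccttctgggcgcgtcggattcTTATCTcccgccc
FECH: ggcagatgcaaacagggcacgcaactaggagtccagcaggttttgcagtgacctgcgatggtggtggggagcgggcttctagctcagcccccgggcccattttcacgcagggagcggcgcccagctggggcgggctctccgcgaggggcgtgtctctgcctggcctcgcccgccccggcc
UROD: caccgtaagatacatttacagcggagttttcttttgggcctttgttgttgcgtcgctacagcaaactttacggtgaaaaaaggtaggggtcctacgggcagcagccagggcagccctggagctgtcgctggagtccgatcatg
The ALAS2 stretch held 1 match, on the reverse strand, from 127 to 122 bases before the RefSeq start. The CPOX stretch held 2 matches, also on the reverse strand, from 207 to 202 and from 125 to 120 bases before the start. Neither the FECH nor the UROD stretch held these letters. ALAD and PPOX, whose stretches are not printed, each held 1 GATA match in the 250 bases before a RefSeq start and 0 before another. Before the start with a match, the longest stretch outside exons held 1 match over 91 bases in ALAD. In PPOX it was 14 bases long and held 0. ALAS1 and ABCB10 held 0 in the 250 bases before their RefSeq starts. Of 35116 RefSeq promoters, 22.3% held at least 1 GATA match in their full 250 bases before the start. The printed stretches are shorter, at 163 bases for ALAS2, 138 for CPOX, 180 for FECH and 143 for UROD. Shares over the full 250 bases are therefore not directly comparable with matches in the printed stretches. Letters of a KLF1 motif, CCNCNCCC on either strand, were found 3 times in the printed ALAS2 stretch, where 2 of the matches overlap. The count was 1 in that of CPOX, 3 in that of FECH and 0 in that of UROD. For the genes not printed, the full 250 bases held 4 in ABCB10, 2 in ALAS1 and 4 before either ALAD start. In PPOX they held 0 before a RefSeq start and 2 before another. Among all promoters, 53.4% held at least 1 in the full 250 bases. The KLF1 letters can overlap the SP1 letters GGGCGG, which 42.6% of promoters held. No measurement of binding was part of these data, and a match describes the sequence alone.

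The libraries held between 16381149 and 20622694 counts. Mitochondrially encoded genes took 5.62% of them with DMSO and 2.07% with periplocin in K562, and 5.24% and 3.92% in THP-1. Erythroid marker genes, 10 in all, summed to 2121 CPM (counts scaled to library size) in K562 DMSO and 11.2 CPM in THP-1 DMSO, where GYPB was at 0. Myeloid markers, also 10, summed to 94.2 CPM in K562 DMSO, where MPO was at 0, and 1177 CPM in THP-1 DMSO, where CD14 had 8 counts. Lymphoid markers, which neither line should hold, summed to between 0.81 and 8.97 CPM over the 4 libraries, and MS4A1 was at 0 in all 4. Most of the K562 sums came from CD3D, with 121 counts (7.09 CPM) with DMSO and 105 counts (6.04 CPM) with periplocin. The line names thus went with the summed erythroid and myeloid markers. Levels below are in CPM scaled by TMM factors, which correct for differences in RNA composition between libraries. In bulk RNA, fewer cells of a type and less RNA per cell cannot be told apart. At this dose and time the study reported more apoptotic cells and fewer cells in S phase in both lines. The part of these changes in the levels was not tested.

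In K562, 6 of the 9 genes were at least 2-fold higher with periplocin than with DMSO, and 0 were at least 2-fold lower. The 6 were ALAS1, ALAS2, ALAD, UROS, CPOX and FECH, and only UROD of the 9 lay below 0. Over all 11814 genes that averaged 1 CPM or more in the pair, 8.86% were at least 2-fold higher and 11.4% at least 2-fold lower. The median log2 fold change was 1.27 for the 9 genes and -0.01 for all genes. In THP-1, 0 of 8 genes were at least 2-fold higher and 2, UROS and PPOX, were at least 2-fold lower, with a median log2 fold change of -0.32 beside -0.03 over all 12393 genes. There, 8.06% of all genes were at least 2-fold higher and 10.7% at least 2-fold lower. ALAS2, at 3 counts in either THP-1 library, did not pass the filter. The erythroid markers moved with these genes in K562. Of 10 markers, 9 were at least 2-fold higher, with a median log2 fold change of 1.68. The summed level of the 10 was 2121 CPM with DMSO and 8722 CPM with periplocin. Of these sums HBG2 held 739 and 3338 CPM, HBG1 462 and 2157 CPM and HBZ 124 and 1145 CPM. The part of the erythroid markers in the result was not tested, nor was that of the lower mitochondrial share of the treated K562 library.

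**Figure D1:**
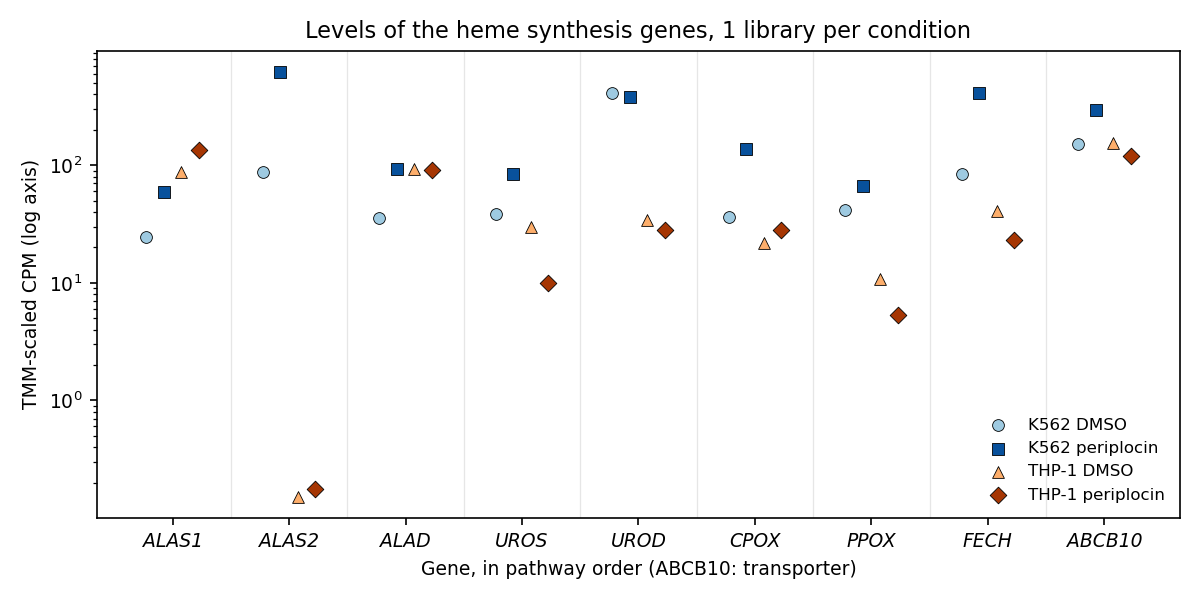
Level of each gene in TMM-scaled CPM on a log axis, 1 point per library, genes in the order of the pathway. ALAS2 spans the widest range, from 0.152 CPM in THP-1 DMSO to 621 CPM in K562 periplocin, and for 7 genes the highest level is that of the K562 periplocin library.

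The first step of the pathway is catalyzed by 2 isozymes, each encoded by its own gene. ALAS2 (ENSG00000158578, chromosome X from 55009055 to 55031064 on the minus strand of GRCh38), the erythroid isozyme, was at 86.9 CPM in K562 DMSO and 621 CPM in K562 periplocin, from 1483 and 10789 counts. In THP-1 it had 3 counts in the DMSO library and 3 in the periplocin library, at the floor of 3 counts below which no fold is given. The K562 periplocin library therefore stood above the other 3. The fold in K562 was 7.14, a log2 fold change of 2.84 (interval 2.76 to 2.92), and it ranked at place 105 from the top of the 11814 genes.

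ALAS1 (ENSG00000023330, chromosome 3 from 52198086 to 52214327, plus strand), the housekeeping isozyme, was at 24.3 CPM with DMSO and 58.6 CPM with periplocin in K562, and at 88.2 and 135 CPM in THP-1. Both THP-1 libraries lay above both K562 libraries, and in each line the periplocin library was the higher. The log2 fold change was 1.27 in K562 (interval 1.10 to 1.44) and 0.61 in THP-1 (interval 0.52 to 0.71). The THP-1 fold, 1.53, was below 2. Of the counts on the 2 synthase genes, ALAS2 held 78.1% in K562 DMSO (exact Clopper-Pearson interval 76.2% to 80.0%) and 91.4% in K562 periplocin (90.8% to 91.9%). In THP-1 its share was 0.172% with DMSO (0.0355% to 0.502%) and 0.131% with periplocin (0.0271% to 0.383%). The synthase messages of K562 were thus mostly those of ALAS2 in either condition, and those of THP-1 were nearly all ALAS1. Per kilobase of longest transcript, ALAS2 stood 4.28 times above ALAS1 in K562 DMSO and 12.7 times above it in K562 periplocin. These ratios depend on the length used. With the median length of the coding transcripts, ALAS2 was at 90.6 and ALAS1 at 11.2 CPM per kilobase in K562 DMSO. In K562 periplocin the values were 647 and 27.0.

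The next enzymes work in the cytosol. ALAD (ENSG00000148218, chromosome 9 from 113386317 to 113401333, minus strand), which joins aminolevulinate molecules into porphobilinogen, was at 35.5 CPM in K562 DMSO and 93.0 CPM in K562 periplocin. Its THP-1 levels were 92.0 CPM with DMSO and 91.7 CPM with periplocin. The untreated K562 library was thus the low one, and the other 3 lay close together. The log2 fold change was 1.39 in K562 (interval 1.26 to 1.53) and -0.005 in THP-1 (interval -0.10 to 0.09), where its sign changed with the scaling, over a range from -0.03 to 0.03.

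UROS (ENSG00000188690, chromosome 10 from 125784980 to 125823285, minus strand), uroporphyrinogen synthase, closes the tetrapyrrole ring. With DMSO its level was 38.3 CPM in K562 and 29.9 CPM in THP-1, and with periplocin it was 83.8 and 9.87 CPM. The untreated libraries were near each other, and the treated ones lay on either side of them. The K562 fold was 2.19, with a log2 interval from 1.00 to 1.27 that begins at the 2-fold line. In THP-1 the level was 3.02-fold lower with periplocin, from 590 and 167 counts, a log2 fold change of -1.60 (interval -1.85 to -1.35). That placed UROS 470th from the bottom of the 12393 genes tested in THP-1.

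UROD (ENSG00000126088, chromosome 1 from 45012147 to 45015575, plus strand), the decarboxylase that makes coproporphyrinogen, was the gene whose level differed least between the K562 libraries, 408 CPM with DMSO and 383 CPM with periplocin. In THP-1 it was at 34.1 CPM with DMSO and 28.3 CPM with periplocin. The split was between the lines, with both K562 libraries far above both THP-1 libraries. The log2 fold change with periplocin was -0.09 in K562 (interval -0.14 to -0.05) and -0.27 in THP-1 (interval -0.44 to -0.10).

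The last 3 steps take place in the mitochondrion. CPOX (ENSG00000080819, chromosome 3 from 98579446 to 98593723, minus strand), coproporphyrinogen oxidase, was at 36.4 CPM in K562 DMSO and 139 CPM in K562 periplocin. Its THP-1 levels were 21.9 and 28.3 CPM. The treated K562 library was the high one, and the log2 fold change there was 1.93 (interval 1.80 to 2.06), place 259 from the top. In THP-1 the log2 fold change was 0.37 (interval 0.18 to 0.56). CPOX shares 163 exonic bases with an annotated gene on the same strand, AC021660.3, so some reads could have been assigned to either.

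PPOX (ENSG00000143224, chromosome 1 from 161166410 to 161178013, plus strand), protoporphyrinogen oxidase, was at 41.3 CPM with DMSO and 66.5 CPM with periplocin in K562, and at 10.8 and 5.32 CPM in THP-1. As for UROS, the higher K562 library and the lower THP-1 library were the treated ones. The log2 fold change was 0.69 in K562 (interval 0.55 to 0.82), under 2-fold. In THP-1 it was -1.02 (interval -1.39 to -0.66), from 213 and 90 counts, and with DESeq2 size factors it was -0.98 and no longer past 2-fold. PPOX shares 1118 exonic bases with B4GALT3 on the opposite strand, and the counting is not stated to use strand, so reads of the pair cannot be told apart with certainty. B4GALT3 itself was at 72.5 and 72.7 CPM in K562 and at 109 and 158 CPM in THP-1, the DMSO value first.

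FECH (ENSG00000066926, chromosome 18 from 57548283 to 57586772, minus strand), ferrochelatase, had the second largest fold of the 9 in K562. Its K562 levels were 84.7 CPM with DMSO and 409 CPM with periplocin, and its THP-1 levels were 40.4 and 23.1 CPM. The highest and the lowest of the 4 libraries were both treated ones. The K562 fold was 4.83, a log2 fold change of 2.27 (interval 2.19 to 2.36), place 168 from the top. In THP-1 the log2 fold change was -0.81 (interval -0.98 to -0.63), short of 2-fold.

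ABCB10 (ENSG00000135776, chromosome 1 from 229516582 to 229558695, minus strand), a transporter of the inner mitochondrial membrane needed for heme synthesis in erythroid cells, was at 153 CPM in K562 DMSO and 155 CPM in THP-1 DMSO. With periplocin it was at 295 CPM in K562 and 120.1 CPM in THP-1. The untreated lines were alike in level, and the treated libraries lay above and below them. The K562 log2 fold change of 0.95 had an interval from 0.88 to 1.02, which holds the 2-fold line from below, while that of THP-1 was -0.37 (interval -0.45 to -0.29). Among the 9 genes it was therefore the one just outside the 2-fold threshold in K562, and UROS the one just inside it.

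**Figure D2:**
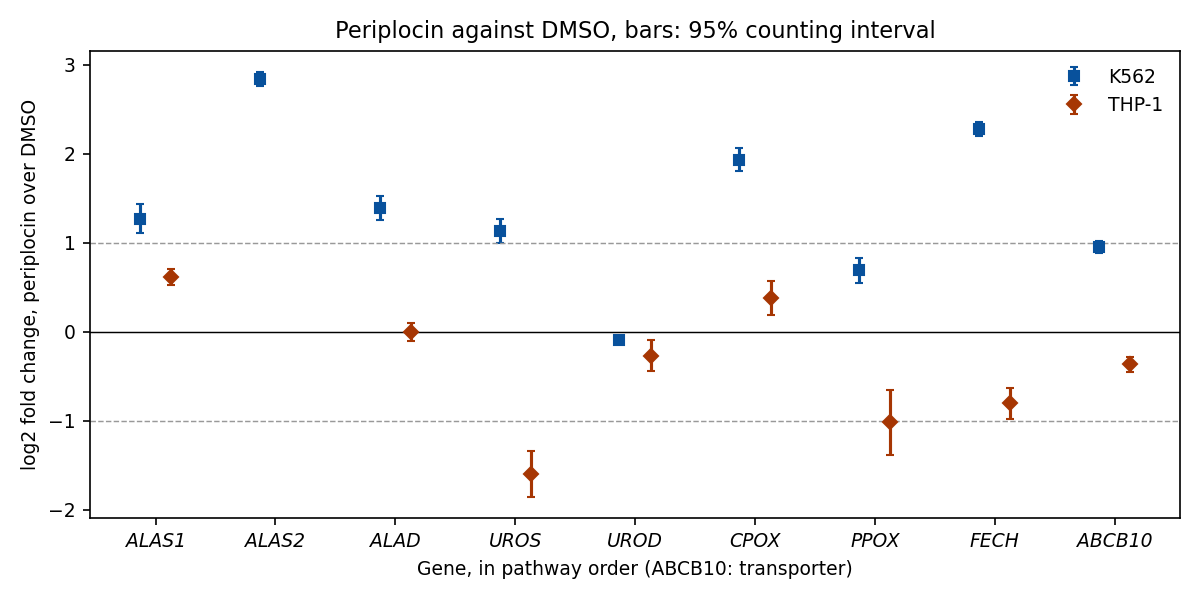
Log2 fold change of each gene, periplocin over DMSO, in K562 (squares) and THP-1 (diamonds), with 95% counting intervals as bars and dashed lines at 2-fold. ALAS2 in K562 reaches 2.84, UROS in THP-1 lies at -1.60, and ALAS2 in THP-1 has no point because its counts were at the floor.

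The fold in K562 exceeded that in THP-1 for each of the 8 genes measured in both lines. The difference of the log2 fold changes, K562 minus THP-1, was 3.08 for FECH (standard error from the counts 0.10), 2.73 for UROS (0.14) and 1.70 for PPOX (0.19). It was 1.56 for CPOX (0.12), 1.40 for ALAD (0.09) and 1.31 for ABCB10 (0.05). The smallest differences were 0.66 for ALAS1 (0.10) and 0.18 for UROD (0.09), the last being under 2 standard errors. For FECH, UROS, PPOX and ABCB10 the intervals lay above 0 in K562 and below 0 in THP-1. With 1 culture of each kind, these differences could not be tested against the variation between cultures.

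The DMSO libraries of the lines were compared next. Relative to K562 DMSO, 2 of the 9 genes were at least 2-fold higher in THP-1 DMSO and 4 at least 2-fold lower, beside 22.9% and 21.0% of all 12849 genes. The count of higher genes was near the share of all genes, and 1 of the 4 lower genes was ALAS2, which passed the filter through K562 alone. The higher ones were ALAS1, 3.63-fold with a log2 fold change of 1.86 (interval 1.70 to 2.02), and ALAD, 2.59-fold with a log2 fold change of 1.38 (interval 1.24 to 1.51). The lower ones were ALAS2, UROD, PPOX and FECH. UROD was 12.0-fold lower (log2 fold change -3.58, interval -3.70 to -3.47), PPOX 3.83-fold lower (log2 fold change -1.94, interval -2.17 to -1.71) and FECH 2.10-fold lower (log2 fold change -1.07, interval -1.19 to -0.94). ALAS2 had a log2 ratio of -9.10 with an interval from -11.44 to -7.61, given by 3 counts against 1483. The rest were under 2-fold: CPOX at a log2 fold change of -0.74, UROS at -0.36 and ABCB10 at 0.02, whose sign changed to -0.10 with total counts in place of TMM. This comparison shares its libraries with the other comparisons.

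Levels of different genes were compared per kilobase of each gene's longest annotated transcript. In K562 DMSO the order was UROD at 221 CPM per kilobase, ALAS2 at 42.9, ABCB10 at 39.6, FECH at 22.0, PPOX at 16.7, CPOX at 12.9, UROS at 11.1, ALAD at 10.9 and ALAS1 at 10.0. The counting intervals overlapped for the neighbours ALAS2 and ABCB10 and along the run from CPOX to ALAS1. In K562 periplocin, ALAS2 led at 306 CPM per kilobase, ahead of UROD at 207, FECH at 106, ABCB10 at 76.4 and CPOX at 49.1. The low end there was ALAD at 28.6, PPOX at 26.9, UROS at 24.3 and ALAS1 at 24.1, each overlapping its neighbour.

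The order in THP-1 was another. With DMSO, ABCB10 led at 40.2 CPM per kilobase, followed by ALAS1 at 36.3, ALAD at 28.3, UROD at 18.4, FECH at 10.5, UROS at 8.66, CPOX at 7.75, PPOX at 4.36 and ALAS2 at 0.0749. Only UROS and CPOX were neighbours with overlapping intervals. With periplocin, ALAS1 led at 55.5 CPM per kilobase, ahead of ABCB10 at 31.1, ALAD at 28.2, UROD at 15.3, CPOX at 10.0, FECH at 6.0, UROS at 2.86, PPOX at 2.15 and ALAS2 at 0.0875, and UROS and PPOX overlapped. These orders depend on the length used. With the median length of the coding transcripts, between 2 and 4 of the 9 genes kept their place in a library.

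Within the summed level per kilobase of the 9 genes, UROD took 57.1% in K562 DMSO and 24.4% in K562 periplocin, while ALAS2 took 11.1% and 36.1%. FECH took 5.68% and 12.5%. In THP-1 the share of ALAS1 was 23.5% with DMSO and 36.7% with periplocin, and that of ABCB10 was 26.0% and 20.6%. With the median coding length, UROD took 48.2% and 17.8% in K562 and ALAS2 took 11.8% and 33.2%, so that ALAS2 passed UROD under either length. Many other shares moved by over 1.5 times with that length, and only some are given here. FECH took 13.4% and 25.7% in K562. In THP-1 ALAS1 took 11.6% and 19.7%, ABCB10 11.5% and 9.88%, and ALAD, the leading gene there, 40.8% and 45.2%. The plain sum over the 9 genes was 909 CPM with DMSO and 2148 CPM with periplocin in K562, and 472 and 442 CPM in THP-1.

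**Figure D3:**
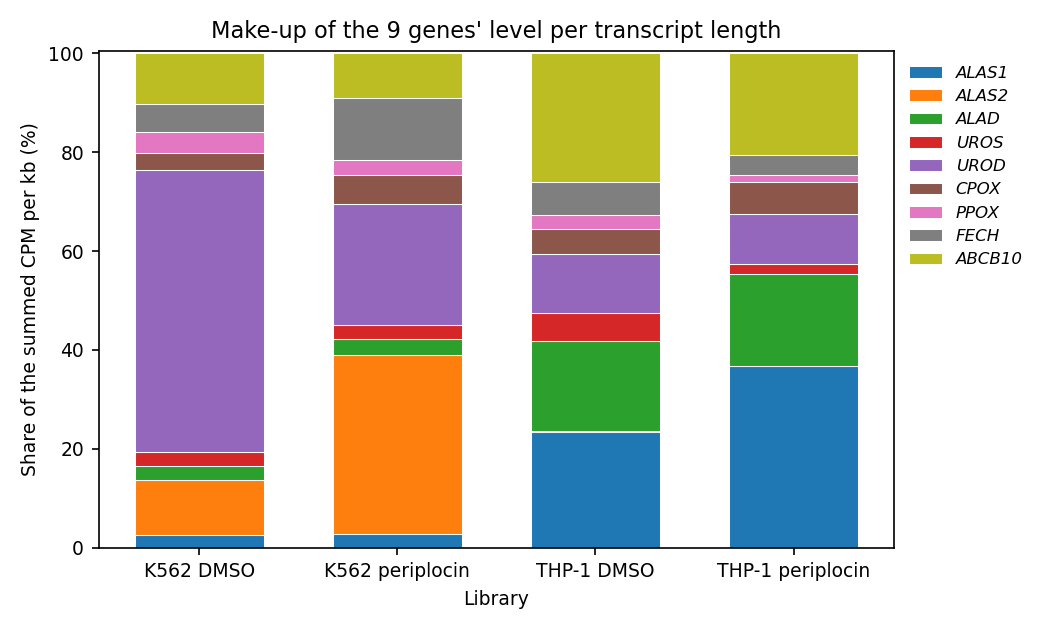
Share of each gene in the summed CPM per kilobase of longest transcript of the 9 genes, 1 stacked bar per library. UROD takes 57.1% of the K562 DMSO bar and ALAS2 36.1% of the K562 periplocin bar, and ALAS2 is too small to be seen in the THP-1 bars.

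Other mitochondrial transport genes numbered 6. In K562 the median log2 fold change of the 6 was 0.80, beside -0.01 over all genes. There, 1 of 6 was at least 2-fold higher and 0 lower, beside 8.86% and 11.4% of all genes. That gene was ABCB6, a porphyrin transporter, at 38.3 and 121.6 CPM in K562 and at 1.92 and 6.21 CPM in THP-1, log2 fold changes of 1.67 (interval 1.54 to 1.79) and 1.69 (interval 1.14 to 2.27). It was the one gene of these 6 that was at least 2-fold higher in both lines. SLC25A37, the mitochondrial iron importer mitoferrin that is prominent in erythroid cells, had a log2 fold change of 0.97 in K562 and -0.35 in THP-1. TMEM14C, which helps move protoporphyrinogen into the mitochondrial matrix, had 0.87 and 0.47. SLC25A38, the mitochondrial glycine carrier, had 0.68 and -0.26. The second mitoferrin gene, SLC25A28, had -0.05 and -0.79.

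Among 8 genes of heme export, uptake and breakdown, 6 passed the filter in K562. Of these, 3 were at least 2-fold higher and 0 lower, beside 8.86% and 11.4% of all genes. These were ABCG2, an exporter that also carries porphyrins, with a log2 fold change of 1.52 (interval 1.3 to 1.75), and the biliverdin reductase genes BLVRA at 1.11 (interval 0.99 to 1.23) and BLVRB at 1.15 (interval 1.10 to 1.21). In THP-1, 7 passed, of which 1 was at least 2-fold higher and 0 lower, beside 8.06% and 10.7% of all genes. That one was HMOX1, the inducible heme oxygenase that breaks heme open, at 2.02 CPM with DMSO and 20.3 CPM with periplocin, from 40 and 344 counts, a log2 fold change of 3.32 (interval 2.85 to 3.84). In K562 HMOX1 had 4 and 16 counts and did not pass the filter. HMOX2, the constitutive heme oxygenase, had a log2 fold change of -0.07 in K562 and -0.01 in THP-1.

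The other folds of this list that passed the filter were below 2. FLVCR1, a heme exporter of the plasma membrane, had log2 fold changes of 0.05 in K562 and -0.59 in THP-1, and SLC48A1, a heme transporter of endosomes and lysosomes, had -0.24 and 0.44. BLVRA and BLVRB in THP-1 had -0.58 and 0.91. FLVCR2 had 5 counts in each K562 library, did not pass the filter there, and had a log2 fold change of 0.09 in THP-1. ABCG2 had 0 and 2 counts in THP-1.

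Of 12 regulators of the pathway, 11 passed the filter in K562, with 1 at least 2-fold higher, 1 lower and a median log2 fold change of 0.41. Over all genes in K562, 8.86% were at least 2-fold higher and 11.4% lower, with a median of -0.01. Both counts of regulators were thus near the shares of all genes. The higher regulator was KLF1, the erythroid Krüppel-like factor, at 83.7 CPM with DMSO and 281 CPM with periplocin (log2 fold change 1.75, interval 1.66 to 1.83). The lower one was LONP1, a protease of the mitochondrial matrix that degrades ALAS1 when heme is plentiful, at 459 and 165 CPM (log2 fold change -1.48, interval -1.54 to -1.41). GATA1, the erythroid master regulator, was at 159 CPM with DMSO and 285 CPM with periplocin, under 2-fold (log2 fold change 0.84, interval 0.77 to 0.91). In THP-1, 9 of the 12 passed, and 0 were at least 2-fold higher, beside 8.06% of all genes. Both KLF1 and GATA1 are also among the erythroid markers above. GATA1 had 3 and 2 counts and KLF1 3 and 1 counts in the THP-1 libraries.

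Among the genes of substrate supply, which make glycine and succinyl-CoA, 0 of 8 in K562 were at least 2-fold higher and 1 lower, with a median log2 fold change of -0.08. The lower one was SHMT2, the mitochondrial serine hydroxymethyltransferase that yields glycine, at 715 CPM with DMSO and 135 CPM with periplocin, 5.29-fold lower (log2 fold change -2.40, interval -2.47 to -2.34). Its cytosolic counterpart SHMT1 was the lower one in THP-1, at 21.9 and 9.58 CPM (log2 fold change -1.19, interval -1.46 to -0.93). All 8 log2 fold changes lay below 0 in THP-1, with a median of -0.37 beside -0.03 over all genes. Of all genes there, 10.7% were at least 2-fold lower. SHMT2 was at -0.74 there, and SHMT1 at -0.47 in K562.

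The other 6 encode parts of the enzyme complexes that make or use succinyl-CoA in the citric acid cycle. Their log2 fold changes in K562 were 0.04 for OGDH, 0.70 for DLST, -0.45 for DLD, 0.44 for SUCLA2, 0.65 for SUCLG1 and -0.19 for SUCLG2. In THP-1 they were -0.40, -0.18, -0.45, -0.19, -0.26 and -0.33 in the same order. None of the 6 reached 2-fold in either line.

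Genes that handle heme after ferrochelatase, for heme a, for c-type cytochromes and as heme-binding proteins, showed no fold of 2 in either line, 0 of 6 in each direction. Of all genes, 8.86% were at least 2-fold higher and 11.4% lower in K562, and 8.06% and 10.7% in THP-1. The medians of the 6 were 0.02 in K562 and 0.16 in THP-1, beside -0.01 and -0.03 over all genes. COX15, which makes heme a from heme o, had the lowest values, -0.87 in K562 and -0.73 in THP-1, and COX10, which acts before it, had -0.13 and -0.44. HCCS, which attaches heme to cytochrome c, had 0.44 and 0.40, and CYCS, cytochrome c, had 0.31 and 0.14. The heme-binding proteins had -0.45 and 0.19 for PGRMC1 and 0.17 and 0.17 for PGRMC2.

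**Figure D4:**
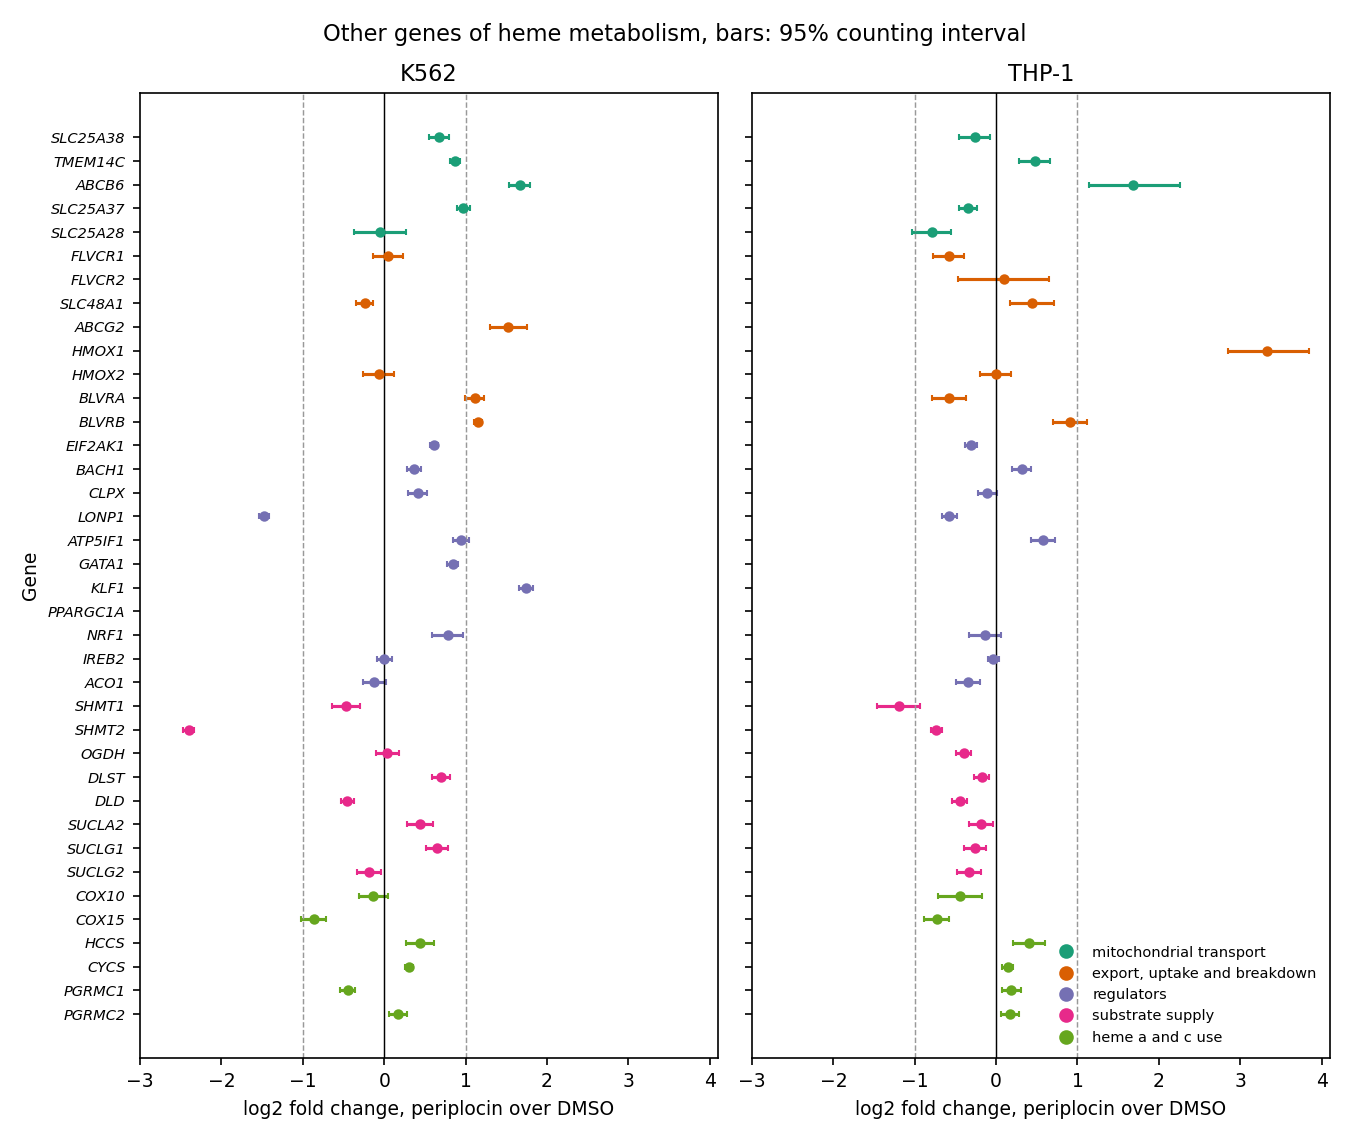
Log2 fold change, periplocin over DMSO, of other genes of heme metabolism in K562 (left) and THP-1 (right), colored by list, with 95% counting intervals as bars and dashed lines at 2-fold. Genes that did not pass the filter have no point. ABCB6, ABCG2, BLVRA, BLVRB and KLF1 lie past 2-fold higher in K562 and SHMT2 and LONP1 past 2-fold lower. In THP-1, HMOX1 at 3.32 and ABCB6 at 1.69 lie past 2-fold higher and SHMT1 at -1.19 past 2-fold lower.

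The genes whose levels over the 4 libraries lay nearest to those of the synthases and of FECH were found by the Euclidean distance of log2(CPM + 1), centred on each gene's mean over the libraries, among 12942 genes that averaged 1 CPM or more. Distances over 4 libraries are a description. Nearest to ALAS2 were HBZ, embryonic zeta globin, at a distance of 0.454, and HBA2, an alpha globin, at 0.61. A gene without a symbol followed at 0.699, and FAXDC2 lay at 0.837. HBZ was at 124 and 1145 CPM in the K562 libraries and at 0.405 and 0.532 CPM in those of THP-1. Reads of HBA2 can be shared with its near-identical copy HBA1, so its value is uncertain. HBZ belonged to the erythroid markers above.

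Nearest to FECH were TESC at 0.244, INPP5J at 0.333, SEMA7A and NDRG2 at 0.494 each and TMCC3 at 0.504. TESC, which encodes a calcium-binding protein, was at 10.8 CPM with DMSO and 50.6 CPM with periplocin in K562, and at 5.37 and 2.01 CPM in THP-1. Nearest to ALAS1 were NFKBIA, which encodes an inhibitor of NF-κB, at 0.134, ARRB2 at 0.154, CARD8 at 0.159, DAPP1 at 0.193 and HIVEP2 at 0.216. NFKBIA was at 10.4 CPM with DMSO and 25.9 CPM with periplocin in K562, and at 43.5 and 65.9 CPM in THP-1. The distance chose these genes for their likeness to ALAS1 over the same 4 libraries, so the shared pattern is no finding.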

How the data were processed

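RNA was taken from K562 and THP-1 cells, 1 library per line and treatment. The authors selected poly-A RNA, sequenced paired ends and deposited 1 table of expected counts per gene, neither normalized nor pooled, in which between 87.4% and 88.3% of the values are whole numbers. The submitters' processing notes name HISAT2, StringTie 1.3.1 and hg38 without their roles, and the annotation and the counting rule for strand are not given in the sources used here. The labels name an Illumina instrument and the methods another platform. Of the 20348 genes in the deposited table, 20310 had a symbol in the gene name list used here. GENCODE 29 on GRCh38, which gave positions, exon overlap and transcript lengths, held 20118 of them.

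Expected counts were rounded. TMM factors over the 4 libraries were computed with edgeR 4.0.16 in R 4.3.3, the alternative size factors with DESeq2 1.42.0, and the rest in Python 3.11.15 with numpy 2.4.6, pandas 2.3.3, scipy 1.17.1 and matplotlib 3.10.9. Log2 fold changes are ratios of scaled CPM with a prior count of 0.125. Genes that averaged 1 CPM or more over the pair were compared, and a fold of at least 2 was the threshold. A count of 3 or fewer was the floor: no fold is given where both libraries are at or under it. The 95% intervals are exact Clopper-Pearson intervals of the counts and cover counting error only, and estimated counts are not independent molecules, so they give the least error these values can have. The scripts were tested on simulated data. With 1 library per condition no test between replicates was possible.

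The 9 genes and all lists were chosen with earlier results of these data known. The text names all 9 genes, every gene of lists of 8 or fewer, those past 2-fold in longer lists, and the 5 nearest genes for ALAS1, ALAS2 and FECH. A few genes that fall under this rule are not reported here. GATA1 and B4GALT3 were named after their values were seen. Protein sequences were not used here. Alternatives were other scalings, filters, a prior count of 2, a 4-fold threshold and another transcript length.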

Additional observations from a re-analysis of the deposited data

Results flagged for a closer look

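The log2 fold changes of 4 genes had intervals on opposite sides of 0 in the lines, above it in K562 and below it in THP-1. The difference, K562 minus THP-1, was 3.079 for FECH, 2.728 for UROS, 1.704 for PPOX and 1.315 for ABCB10, from 1 library per line and treatment. Whether the lines differ beyond the variation between cultures was not tested.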

How the results depend on the processing

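No paired analysis was possible because each condition had 1 library, and for the same reason no replicate could be left out. Of 130 alternative log2 fold changes of single genes, 126 stayed within the counting interval and 4 moved, and 0 changed the sign of a fold past 2. The 4 were those of UROD, at -3.71 with total counts with or without the mitochondrial genes, and of ABCB10, at -0.10 and -0.11, between the DMSO libraries, where these scalings moved the median of all genes from 0.03 to -0.10 and -0.10. With DESeq2 size factors, 1 of the 9 genes in place of 2 was at least 2-fold lower in THP-1. At 4-fold, 2 of the 9 genes were higher in K562, 0 were lower in THP-1, and 0 were higher and 2 lower between the DMSO libraries, beside 234 higher and 317 lower of all genes in K562, 271 and 238 in THP-1, and 1800 and 1418 between the DMSO libraries. With all genes of at least 1 count, 2643 were at least 2-fold higher and 2529 lower in K562, 2291 and 2516 in THP-1, and 4570 higher between the DMSO libraries. With a mean of at least 5 CPM, 641 were higher and 872 lower in THP-1. The numbers of the 9 genes past 2-fold did not change with these filters. The cause of these moves was not tested. Depth limits ALAS2 in THP-1, where 3 counts in each library give no fold.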
